A study of Mus musculus with 8 samples.

Results

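The *Hox* cluster genes are the 39 genes of the mouse *Hoxa*, *Hoxb*, *Hoxc* and *Hoxd* clusters, out of 19465 genes that the probe panel reported. They were taken by symbol, as every gene named *Hox* with a cluster letter from a to d and a number, and no measured value entered the choice. Their transcripts were counted as unique molecular identifiers (UMIs) in 8 sections of mouse embryonic diaphragm, the muscle that separates chest from abdomen, with a spatial assay that hybridises gene-specific probe pairs to fixed tissue lying over a grid of capture spots. There were 3 sections of control embryos at embryonic day E14.5 and 2 at E18.5, 1 section of a CaV1.1 -/- embryo at each stage and 1 section of a bCat cKO embryo at E18.5. CaV1.1 (*Cacna1s*) is the voltage sensor of skeletal muscle, and embryos without it, called dysgenic or CaV1.1 KO, have muscle that does not contract. In the bCat cKO, here β-cat cKO, floxed alleles of β-catenin (*Ctnnb1*) were recombined by Cre under the human skeletal actin promoter, so that the deletion was directed to muscle fibers and not to tendon, nerve or mesothelium. Control embryos kept at least 1 working allele of each of these genes, came from the same kinds of crosses, and could carry Cre, a floxed allele or a single *Cacna1s* null allele, which the labels do not give per embryo. Each section came from its own embryo, and each mutant group was 1 section, so a mutant value has no replicate of its own. The questions put to these data were at which level each *Hox* gene was present in muscle and in the tissue around it, whether that differed between stages and genotypes, and whether members of a cluster moved alike.

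*Hox* genes encode homeodomain transcription factors that lie in 4 clusters and give cells a position along the head-to-tail axis. Within a cluster they are numbered in order, so that genes with the same number in different clusters form a paralog group, and low numbers are expressed from the hindbrain and neck downward while high numbers start nearer the tail. Diaphragm muscle comes from cervical somites and is innervated by the phrenic nerve, its connective tissue comes from the pleuroperitoneal folds, and the ribs, liver, lung and esophagus that adjoin it have axial origins of their own. *Hoxa5* and *Hoxc5* are known for maintaining phrenic motor neurons.

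By the GENCODE M21 gene models on GRCm38, the *Hoxa* cluster (11 members) lies on the minus strand of chromosome 6, and the other clusters lie on plus strands. *Hoxb* (10 members) spans chromosome 11 from 96194316 to 96368256, *Hoxc* (9) chromosome 15 from 102921103 to 103036852, and *Hoxd* (9) chromosome 2 from 74668310 to 74765142. The promoters of 3 members that the comparisons turned on are shown, each as the 250 bases before the RefSeq transcription start on GRCm38.p6. *Hoxa2* is shown because it fell between the stages in muscle, *Hoxb8* because it was lower in muscle than around it at E14.5, and *Hoxd8* because it fell between the stages in muscle and was lower in muscle than around it at E18.5. Capitals mark letters TGATNNAT, to which Hox proteins bind together with Pbx, or TTTATG, to which Cdx proteins bind, on either strand.

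Hoxa2, chr6:52164832-52165081, minus strand: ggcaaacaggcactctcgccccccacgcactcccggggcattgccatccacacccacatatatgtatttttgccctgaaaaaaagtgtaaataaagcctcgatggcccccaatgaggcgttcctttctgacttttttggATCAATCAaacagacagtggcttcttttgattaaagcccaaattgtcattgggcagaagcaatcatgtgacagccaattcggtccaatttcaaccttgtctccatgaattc

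Hoxb8, chr11:96281655-96281904, plus strand: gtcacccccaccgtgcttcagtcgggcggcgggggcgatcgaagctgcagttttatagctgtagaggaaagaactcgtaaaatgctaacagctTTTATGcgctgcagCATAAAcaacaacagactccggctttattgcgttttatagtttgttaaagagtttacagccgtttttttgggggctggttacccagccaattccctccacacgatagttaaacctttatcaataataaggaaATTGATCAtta

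Hoxd8, chr2:74704365-74704614, plus strand: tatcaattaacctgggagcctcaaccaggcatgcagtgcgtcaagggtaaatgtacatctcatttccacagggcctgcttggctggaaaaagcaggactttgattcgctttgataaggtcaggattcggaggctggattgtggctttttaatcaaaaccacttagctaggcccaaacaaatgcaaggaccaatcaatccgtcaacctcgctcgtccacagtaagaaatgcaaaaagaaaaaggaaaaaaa

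None of these windows held exon bases of the gene models, although the *Hoxa2* window lay within the gene *Gm28308* and the *Hoxd8* window within the antisense gene *Hoxd3os1*, in both cases between exons. The Hox and Pbx letters occurred once in the *Hoxa2* window and once in the *Hoxb8* window, which also held the Cdx letters 2 times, and the *Hoxd8* window held neither. Over all 32851 promoters of the same length, 7.7% held the Hox and Pbx letters and 10.8% the Cdx letters. Of the 22 members with an entry in this RefSeq table, 4 held the former (*Hoxa2*, *Hoxb1*, *Hoxb8* and *Hoxd11*) and 5 the latter (*Hoxa7*, *Hoxb8*, *Hoxd3*, *Hoxd4* and *Hoxd11*). A match of letters is a description and was not tested for binding.

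The sections held 14179161 to 82859104 UMIs over 683 to 3460 spots with at least 1000 UMIs. Spots were 55 µm wide and each covered several cells, so fewer cells of a type and less RNA per cell cannot be told apart. Muscle spots were those rich in 9 sarcomere genes (491 to 3092 per section) and all other spots were taken as other tissue (102 to 580). These genes summed to 16235 to 27362 CPM (UMIs per 1000000 UMIs of the region) in muscle spots at E14.5 and 71384 to 131917 at E18.5, against 3110 to 8681 and 15872 to 47828 outside muscle, so the labelled tissue was present in every section and other tissue still held some muscle. Other tissue was not the same mixture everywhere. Hepatocyte genes ranged from 22 to 13328 CPM there, and adrenal cortex genes reached 1961 in E14.5 control 1 and 3 to 8 in the rest. *Cacna1s* in muscle was 16.2 CPM in the E14.5 KO against 18.3 to 22.8 in its controls and 31.4 in the E18.5 KO against 61.2 and 63.9, whereas *Ctnnb1* was 81.5 in the β-cat cKO against 75.9 and 71.2. The *Ctnnb1* value was not below its controls, and where its probe lies relative to the floxed exons was not checked. Levels in the comparisons are CPM scaled for composition with the TMM (trimmed mean of M values) factors of each comparison's own model, and because each gene has its own probes, levels are compared between samples and never between genes.

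All 39 members were looked for. By the rule of at least 1 UMI CPM in muscle or other tissue of at least 2 control sections, 27 had values and 12 did not. Those without were *Hoxa11*, *Hoxa13*, *Hoxb1*, *Hoxb13*, *Hoxc10* to *Hoxc13* and *Hoxd10* to *Hoxd13*. Paralog groups 11 to 13, the posterior end of the clusters, had 9 members, none with values, and together 50 of the 117313 *Hox* UMIs of the 8 sections. *Hoxc12* had none at all, while *Hoxc10* had the most of the members without values, with 101. The *Hoxa* cluster gave 45966 UMIs, *Hoxc* 33583, *Hoxb* 23728 and *Hoxd* 14036. The members with most UMIs were *Hoxc4* (15952), *Hoxa4* (12613), *Hoxa2* (12134), *Hoxb2* (11356) and *Hoxa5* (10307), all of paralog groups 2, 4 and 5, although such totals also depend on each gene's probes. Between 89.1% and 99.5% of the spots of a section held at least 1 *Hox* UMI, with a median of 4 to 21 per spot. Some members' gene models overlap by their start and end positions: *Hoxa3* with *Hoxa4*, *Hoxa5* and *Hoxa6*, *Hoxc5* with *Hoxc6*, *Hoxc8*, *Hoxc9* and *Hoxc10*, and *Hoxd3* with *Hoxd4*. Whether their probes lie in shared bases was not checked, so the split of UMIs between them may be uncertain.

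Summed over members, *Hox* CPM in muscle was 404.9, 434.0 and 449.6 in the E14.5 controls and 209.2 and 242.5 in the E18.5 controls. The mutants had 436.8 (E14.5 KO), 305.6 (E18.5 KO) and 221.5 (β-cat cKO). In other tissue the sum was 656.0, 630.0 and 519.8 at E14.5 and 336.2 and 563.4 at E18.5, above the same section's muscle in all 5 controls. These sums are plain shares of all UMIs, without the composition scaling used below.

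**Figure D1:**
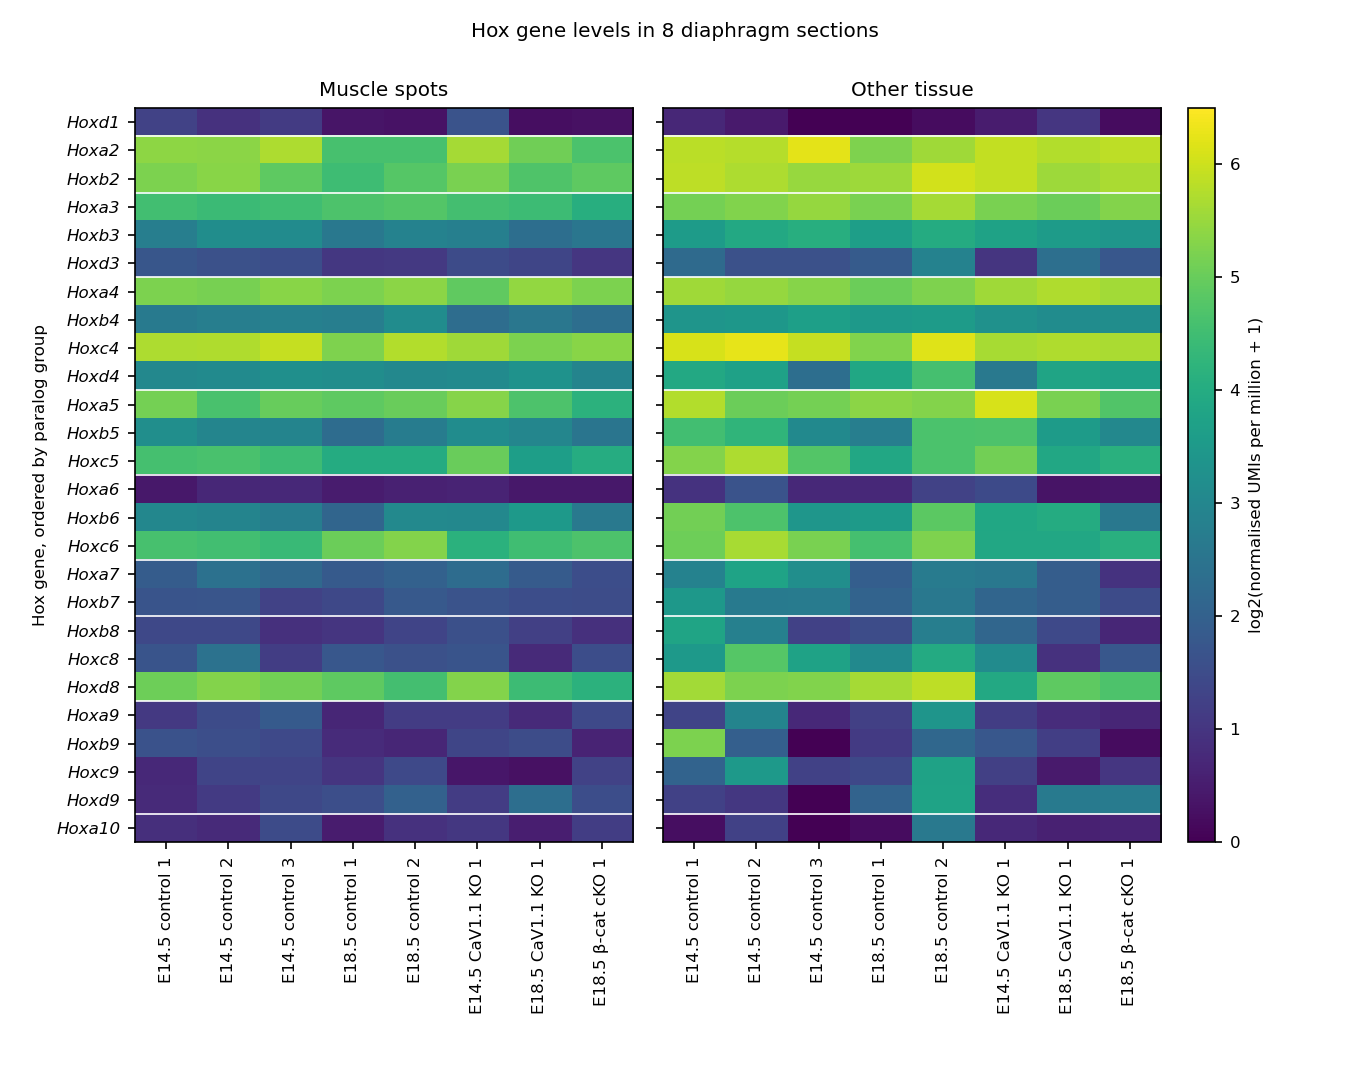
Heatmap of 26 *Hox* members with values, ordered by paralog group, in muscle spots (left) and other tissue (right) of the 8 sections, colored by log2 of the TMM-scaled CPM plus 1. *Hoxc4* and *Hoxa2* are bright in every section and in both tissues, and *Hoxd8* is dimmer in other tissue of the E14.5 CaV1.1 KO than in its controls. No member of groups 11 to 13 appears, and *Hoxb9* is bright in 1 place, the other tissue of E14.5 control 1.

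Muscle was compared with other tissue of the same section in the 5 controls, with the section as a block, by edgeR's quasi-likelihood test with Benjamini-Hochberg adjustment over 14126 genes. At E14.5, muscle held less of 9 of the 27 members tested and more of none. Of all genes tested, 41.0% were called at this stage, and 18.0% were called lower in muscle. DESeq2 called 8 members lower and none higher. Scaled to total UMIs, which moved the median of all genes by -0.19 on the log2 scale, 14 were lower and none higher. The members called were mostly those of paralog groups 6 to 8, where 6 of 8 were lower with a median log2 difference of -1.22, against 2 of 7 in groups 1 to 3, 0 of 7 in groups 4 and 5 and 1 of 5 in groups 9 to 13. The median over the members tested was -0.46 and over all genes 0.01.

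*Hoxc8*, which patterns thoracic vertebrae and forelimb motor neurons, had 2.48, 4.98 and 1.40 CPM in muscle of E14.5 controls 1, 2 and 3 and 9.11, 23.4 and 10.8 outside it. Every muscle value lay below every value of other tissue. The log2 difference was -2.25 (SE 0.30, edgeR adjusted p = 0.0016), and it was also called at E18.5. *Hoxb6*, a trunk gene expressed in lateral plate mesoderm, had 7.75, 7.43 and 6.39 in muscle against 30.1, 21.7 and 8.42, with a log2 difference of -1.49 (SE 0.25, edgeR adjusted p = 0.0042). Its values did not overlap either, although section 3 came close. *Hoxb7* had 2.48, 2.60 and 1.62 against 8.95, 4.63 and 4.81, a log2 difference of -1.39 (SE 0.28, edgeR adjusted p = 0.0085). *Hoxa7*, its paralog, had 2.99, 4.89 and 4.0 against 5.63, 11.1 and 7.21, a log2 difference of -1.01 (SE 0.22, edgeR adjusted p = 0.012). Both members of group 7 were thus lower in muscle in 3 of 3 sections with no overlap. *Hoxb8*, which acts in trunk mesoderm and in blood cell precursors, had 1.82, 1.88 and 0.983 against 11.5, 5.32 and 1.2, a log2 difference of -1.85 (SE 0.43, edgeR adjusted p = 0.014), and its values overlapped between sections because other tissue of control 3 was low. *Hoxc9*, a thoracic-level gene, had 0.747, 1.69 and 1.69 against 2.82, 8.92 and 1.2 (log2 difference -1.76, SE 0.58, edgeR adjusted p = 0.047), so it was lower in muscle in 2 of 3 sections.

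The other called members differed by less. *Hoxa3*, needed for thymus and parathyroid, had 24.6, 23.0 and 24.4 in muscle against 30.2, 32.8 and 37.9 (log2 difference -0.46, SE 0.10, edgeR adjusted p = 0.012). *Hoxb3* had 6.54, 9.22 and 8.78 against 9.61, 12.3 and 13.8 (log2 difference -0.53, SE 0.14, edgeR adjusted p = 0.024). *Hoxc6*, a brachial-level gene, had 26.0, 24.9 and 22.5 against 28.7, 43.3 and 31.3 (log2 difference -0.48, SE 0.15, edgeR adjusted p = 0.039). None of these 3 overlapped. *Hoxc4*, the member with most UMIs that was not called, had 56.0, 58.9 and 66.5 in muscle and 59.8, 66.0 and 52.9 outside it, overlapping values with a log2 difference of -0.02 (SE 0.12). The number called fell to 3 without E14.5 control 2 and to 5 without E14.5 control 1, and was 11 or 12 without 1 of the E18.5 controls. Every one of the 9 except *Hoxc8* and *Hoxb6* lost its call without at least 1 E14.5 control.

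At E18.5, 2 of the 27 members were higher and 8 lower in muscle than in other tissue, where 57.9% of all genes were called, 31.1% higher and 26.8% lower. DESeq2 called 2 higher and 7 lower. Scaled to total UMIs, which moved the all-gene median by -0.69, none was higher and 20 were lower. *Hoxb2*, which specifies facial motor neurons in the hindbrain, had 23.9 and 30.5 in muscle of E18.5 controls 1 and 2 and 38.7 and 57.2 outside (log2 difference -0.80, SE 0.11, edgeR adjusted p = 0.00076). *Hoxb3* had 5.72 and 7.30 against 9.82 and 12.9 (log2 difference -0.80, SE 0.17, edgeR adjusted p = 0.0057), and *Hoxa2*, the selector gene of the second pharyngeal arch, 26.2 and 27.1 against 31.4 and 40.7 (log2 difference -0.43, SE 0.10, edgeR adjusted p = 0.010). Their groups did not overlap. *Hoxd3*, which shapes the upper neck vertebrae, had 1.23 and 1.27 against 2.28 and 5.50 (log2 difference -1.54, SE 0.41, edgeR adjusted p = 0.015). It was low in muscle in 2 of 2 sections.

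*Hoxc8* and *Hoxb6* were lower in muscle at this stage too. *Hoxc8* had 2.68 and 2.35 in muscle against 6.40 and 12.8 (log2 difference -1.87, SE 0.35, edgeR adjusted p = 0.0036). *Hoxb6* had 3.80 and 8.42 against 9.10 and 24.3 (log2 difference -1.41, SE 0.29, edgeR adjusted p = 0.0056). *Hoxd8*, a trunk gene, had 32.3 and 25.7 against 41.1 and 48.9 (log2 difference -0.64, SE 0.19, edgeR adjusted p = 0.024). For each of these the values did not overlap. The members higher in muscle were *Hoxa4*, a neck-level gene, at 40.5 and 46.1 against 27.3 and 31.9 (log2 difference 0.55, SE 0.10, edgeR adjusted p = 0.0037), and *Hoxc6*, at 35.9 and 43.9 against 19.5 and 32.2 (log2 difference 0.65, SE 0.17, edgeR adjusted p = 0.016). With total UMIs as the scale their log2 differences turned to -0.13 and -0.028, so their direction holds relative to the other genes and not as a share of all UMIs. *Hoxc4* had 41.8 and 61.3 in muscle and 31.9 and 62.1 outside, which overlap (log2 difference 0.18, SE 0.14). On the scale of total UMIs its sign turned and it was called lower in muscle, at -0.51 (edgeR adjusted p = 0.019). The number called was 6 without E18.5 control 2 and 14 without E18.5 control 1. *Hoxb6*, *Hoxa2*, *Hoxd3* and *Hoxd8* lost the call without E18.5 control 2 and *Hoxc6* without control 1.

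The change of the muscle difference between stages was tested directly as an interaction, in which 21.0% of all genes were called, 13.6% with a larger and 7.42% with a smaller value at E18.5. Of the 27 members, *Hoxc6* went from lower to higher in muscle, a change of 1.13 on the log2 scale (SE 0.23, edgeR adjusted p = 0.016), and the call held without each of the 5 controls in turn. *Hoxb2* went from a log2 difference of -0.17 at E14.5, where it had 40.4, 44.5 and 31.9 in muscle and 49.9, 44.2 and 38.5 outside with overlap, to the -0.80 given above. Its change was -0.63 (SE 0.14, edgeR adjusted p = 0.022), and the call was lost without E14.5 control 2 or E18.5 control 2. DESeq2 called 1 member in each direction as well. Scaled to total UMIs, which moved the all-gene median by -0.46, none was called with a larger value and 6 with a smaller one, and *Hoxc6* kept its sign at 0.65 without the call (edgeR adjusted p = 0.056). Without the section as a block, neither was called. The number called was 5 without E18.5 control 1, 3 without E14.5 control 1 or 3, and 1, *Hoxc6*, without E14.5 control 2 or E18.5 control 2.

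**Figure D2:**
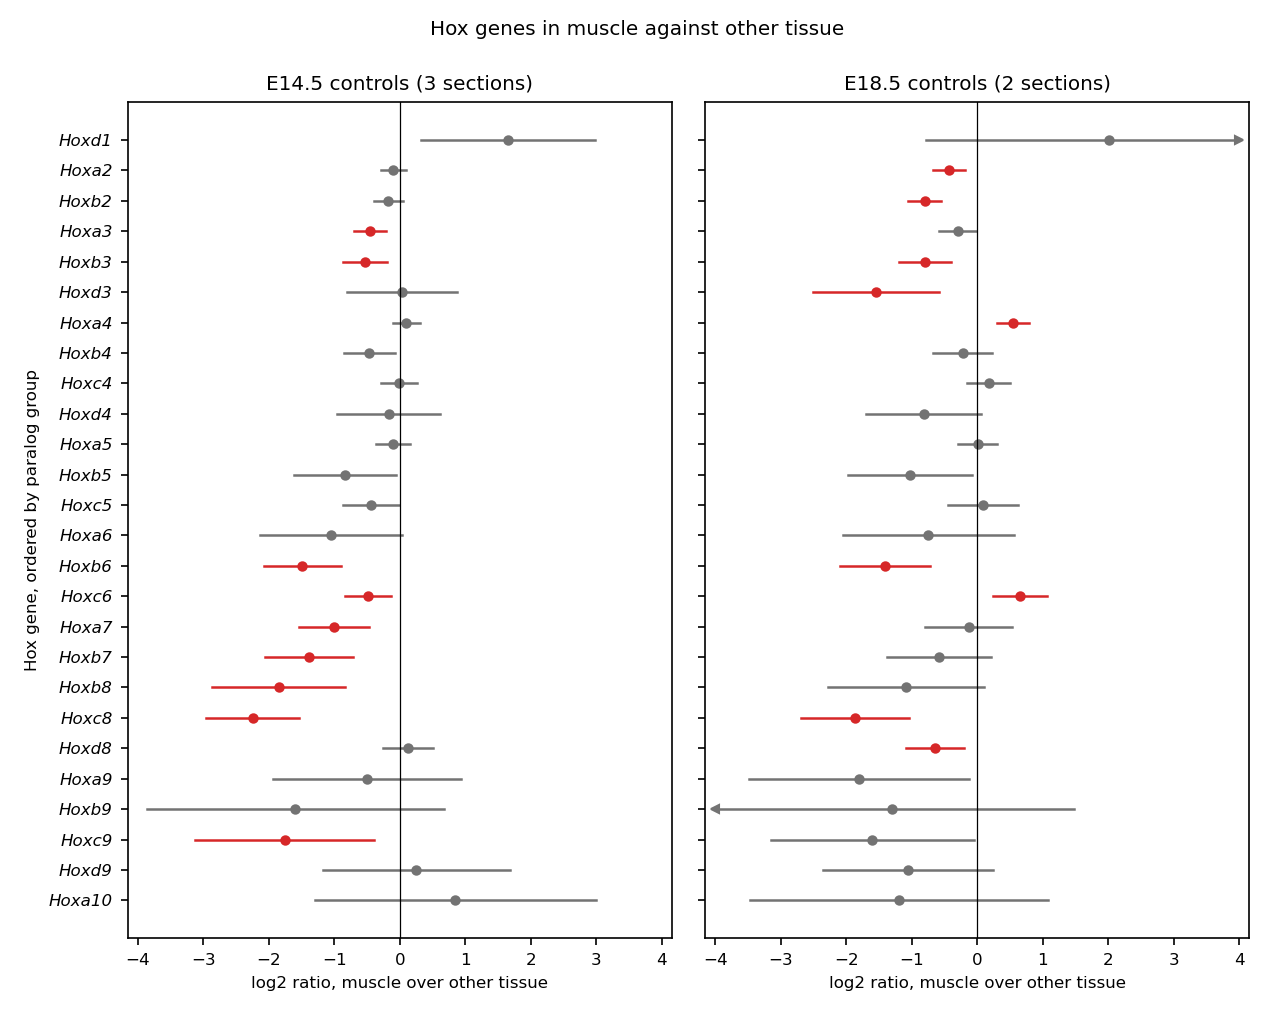
Log2 ratio of muscle over other tissue for 26 *Hox* members with values, ordered by paralog group, in controls at E14.5 (left panel) and E18.5 (right panel), with bars for 95% intervals from edgeR, red for members called and arrows where an interval runs past the axis. At E14.5 the 9 red points all lie left of 0, and at E18.5 *Hoxa4* and *Hoxc6* are red on the right of 0, but lie at -0.13 and -0.028 when scaled to total UMIs.

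One patch of E14.5 control 1 differed from the tissue around it in several *Hox* genes. It comprised 18 spots outside muscle with at least 1000 CPM of 5 adrenal cortex genes, and 2293285 UMIs in all. *Hoxb9*, a gene of thoracic and more posterior levels, had 361 of the 388 UMIs that it had outside muscle in these spots, 157 CPM (95% exact Poisson interval 142 to 175). In the 246 other spots outside muscle it had 27 UMIs or 3.53 CPM (2.32 to 5.13), and in muscle 50 UMIs or 2.42 CPM. The intervals, which cover counting error only, did not overlap, and the level in the patch was 44.7 times that of the spots around it. *Hoxb8* was at 46.7 CPM there against 4.18, *Hoxb6* at 114 against 13.3 and *Hoxb7* at 33.6 against 4.05. *Hoxb5* and *Hoxd8* were also higher there, with 58.9 against 13.2 and 118 against 30.9, as were *Hoxd4* with 32.3 against 10.2 and *Hoxc8* with 21.8 against 7.83. Not all *Hoxb* genes were: the intervals of *Hoxb4*, at 14.0 against 9.01, and *Hoxb3*, at 9.59 against 12.3, overlapped. Other members went the opposite way in the same spots. *Hoxc4* had 54.1 against 78.1 CPM, *Hoxa2* 31.8 against 67.9 and *Hoxa5* 32.7 against 64.5. The section has no replicate in this respect, since adrenal cortex genes were near 0 elsewhere, and no test was made.

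These spots moved with the comparison of muscle and other tissue. When they were left out, an alternative chosen after seeing the data, the log2 difference at E14.5 was -0.94 for *Hoxb6* in place of -1.49, -0.84 for *Hoxb7* in place of -1.39 and -1.13 for *Hoxb8* in place of -1.85. All 3 kept the call, as did *Hoxc8* at -2.09, whereas *Hoxc6* lost it at -0.45. *Hoxd8* was then called higher in muscle, at 0.39, and 8 members lower, and its change between stages was called at -1.03.

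**Figure D3:**
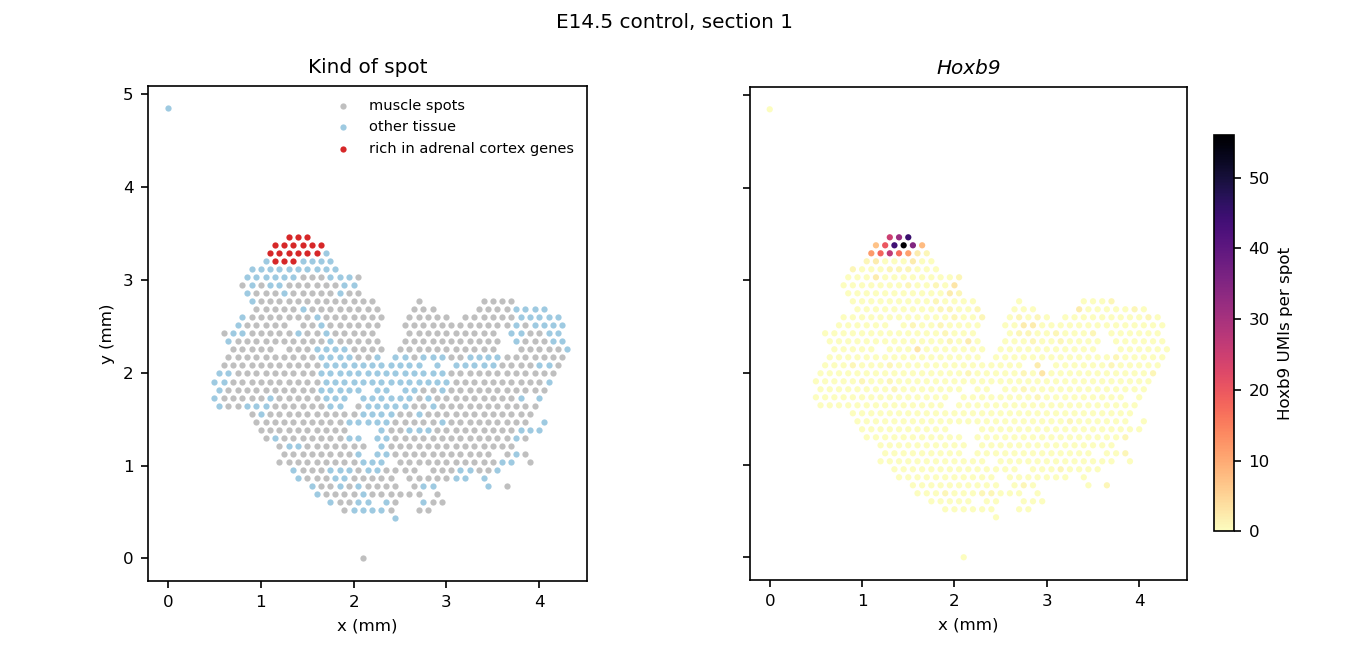
Spots of E14.5 control 1 at their place in the section (x and y in mm), colored by kind on the left (muscle, other tissue, rich in adrenal cortex genes) and by *Hoxb9* UMIs per spot on the right. The dark *Hoxb9* spots lie in the patch rich in adrenal cortex genes, which holds 361 UMIs, against 50 in all muscle spots.

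In muscle, stages were compared between the 3 E14.5 and 2 E18.5 controls, in a model of all 8 sections with 14832 genes. Of 28 members tested, 3 were higher and 8 lower at E18.5, a stage difference in which 65.6% of all genes were called, 33.2% higher and 32.3% lower. DESeq2 called 2 higher and 6 lower. The median log2 change was -0.27 over the members and -0.01 over all genes. With total UMIs as the scale, the median of all genes was -0.73, none was higher and 18 were lower. Muscle transcripts took a much larger share of the muscle spots' UMIs at E18.5, as the sarcomere sums above show, and the part of this in the shift was not tested. By paralog group, 1 member was higher and 4 lower among the 7 of groups 1 to 3, none and 2 among the 7 of groups 4 and 5, and 1 in each direction among the 8 of groups 6 to 8 and the 6 of groups 9 to 13.

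Among the members that fell, *Hoxa2* went from 41.3, 40.7 and 50.9 CPM in E14.5 controls 1 to 3 to 23.3 and 23.6 in E18.5 controls 1 and 2 (log2 change -0.91, SE 0.12, edgeR adjusted p = 0.00027). Its stages were far apart, and the call held without any 1 control. *Hoxb2*, the paralog in the same group, went from 36.5, 39.4 and 28.5 to 21.2 and 26.5 (log2 change -0.55, SE 0.16, edgeR adjusted p = 0.016), with no overlap but a narrow gap. *Hoxc5*, one of the genes that maintain phrenic motor neurons, went from 23.0, 23.7 and 20.9 to 15.1 and 15.1 (log2 change -0.58, SE 0.10, edgeR adjusted p = 0.0012). *Hoxb5* went from 8.19, 6.78 and 6.60 to 3.94 and 5.60 (log2 change -0.59, SE 0.20, edgeR adjusted p = 0.029). Both were lower at E18.5 without overlap, whereas *Hoxa5*, their paralog in group 5, had 34.0, 23.8 and 31.0 and then 28.6 and 31.3, which overlap (log2 change 0.02, edgeR adjusted p = 0.92). *Hoxd1*, known from pain-sensing neurons, went from 1.44, 0.890 and 1.19 to 0.291 and 0.239 (log2 change -2.12, SE 0.40, edgeR adjusted p = 0.0023), and *Hoxb9* from 2.11, 1.97 and 1.70 to 0.727 and 0.630 (log2 change -1.50, SE 0.30, edgeR adjusted p = 0.0026). These were the largest falls among the called members, at low levels. *Hoxd3* went from 2.36, 2.06 and 1.88 to 1.09 and 1.11 (log2 change -0.94, SE 0.26, edgeR adjusted p = 0.015), and *Hoxd8* from 32.3, 38.3 and 33.9 to 28.7 and 22.4 (log2 change -0.45, SE 0.13, edgeR adjusted p = 0.017).

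The members that rose were *Hoxc6*, *Hoxd9* and *Hoxa3*. *Hoxc6* went from 23.5, 22.1 and 20.1 to 31.9 and 38.2 (log2 change 0.68, SE 0.11, edgeR adjusted p = 0.0011), and turned to -0.043 when scaled to total UMIs. *Hoxd9*, known from hindlimb and lumbar levels, went from 0.718, 1.14 and 1.63 to 1.96 and 3.02 (log2 change 1.12, SE 0.37, edgeR adjusted p = 0.027), and its change was 0.39 without a call when scaled to total UMIs (edgeR adjusted p = 0.39). *Hoxa3* went from 22.2, 20.4 and 21.8 to 24.8 and 26.3 (log2 change 0.25, SE 0.09, edgeR adjusted p = 0.039), and turned to -0.47 when scaled to total UMIs. None of the 3 overlapped between stages on the TMM scale, and none was called higher on the scale of total UMIs. *Hoxc4*, with most UMIs of those not called, had 50.6, 52.2 and 59.5 at E14.5 and 37.2 and 53.3 at E18.5 (log2 change -0.26, SE 0.15, edgeR adjusted p = 0.18). The number called was 7 without E18.5 control 1 and 8 to 10 without any other control. *Hoxa3* lost its call without any single control, *Hoxd9* without E14.5 control 1 or 2 or E18.5 control 2, *Hoxd8* without E14.5 control 2 or E18.5 control 2, *Hoxd3* without either E18.5 control, *Hoxb2* without E18.5 control 1 and *Hoxb5* without control 1 of either stage.

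**Figure D4:**
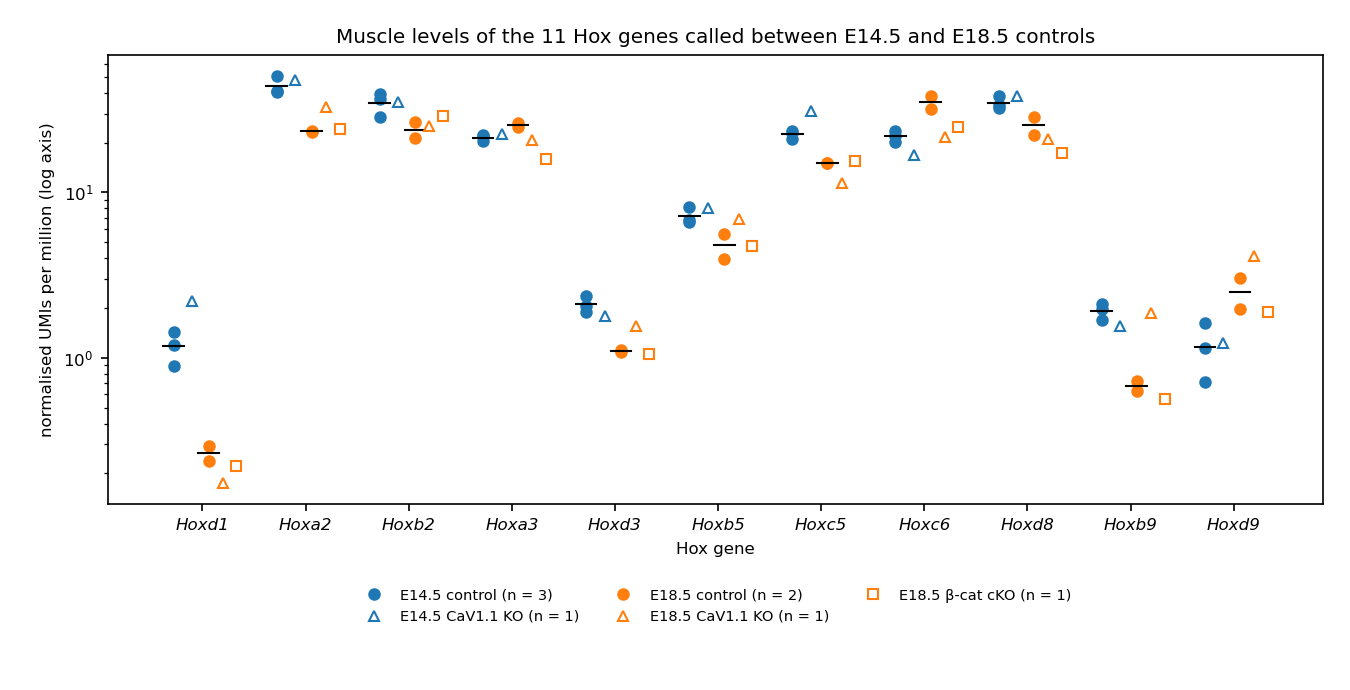
Levels in muscle, in TMM-scaled CPM on a log axis, of the 11 *Hox* members called between stages, with 1 point per section (filled circles, controls; open triangles, CaV1.1 KO; open square, β-cat cKO) and lines at the control means. *Hoxa2* sits between 40.7 and 50.9 in the E14.5 controls and at 23.3 and 23.6 in the E18.5 controls, and the rises of *Hoxc6* and *Hoxa3* become -0.043 and -0.47 on the log2 scale when scaled to total UMIs.

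In other tissue, 1 of 27 members was higher at E18.5 and none lower, where 30.6% of 14799 genes were called in either direction and 16.6% were called higher. DESeq2 called 1 in each direction, and total UMIs as the scale, with an all-gene median of -0.25, gave 1 higher and 3 lower. The member called was *Hoxd9*, with 1.40, 1.08 and 0 in the E14.5 controls and 3.17 and 12.7 in the E18.5 controls (log2 change 2.90, SE 0.82, edgeR adjusted p = 0.041). Its groups did not overlap, but control 3 at E14.5 had no *Hoxd9* UMI there, which by counting error alone allows up to 2.25 unscaled CPM, and the call was lost without any 1 of the E14.5 controls or without E18.5 control 2. *Hoxc4* had 67.6, 75.6 and 60.3 at E14.5 and 37.4 and 71.6 at E18.5, which overlap (log2 change -0.32, edgeR adjusted p = 0.41). The number called was 0 to 2 over the fits without 1 control, with 2 without E18.5 control 1. Hepatocyte, cartilage and adrenal genes differed between these sections, and their part in the values of other tissue was not tested.

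The mutants were each set against the controls of their own stage, which the E18.5 KO and the β-cat cKO share. In muscle of the E14.5 CaV1.1 KO, edgeR called none of 28 members (4 had an unadjusted p under 0.05), where 2.08% of all genes were called, and DESeq2 called none. The smallest adjusted p was that of *Hoxc5*, with 31.2 CPM against 23.0, 23.7 and 20.9 in the controls (log2 difference 0.47, edgeR adjusted p = 0.11). *Hoxa4* was at 29.2 against 36.4, 35.1 and 39.4. Both lay outside their controls' range without passing the test. The median log2 difference over members was 0.02, and 13 of the 28 had a 95% interval within 1 log2 unit on both sides, so for the others larger differences could not be told from none at this depth.

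In muscle of the E18.5 CaV1.1 KO, 1 member was higher and 1 lower, where 25.7% of all genes were called, 10.6% higher and 15.2% lower. *Hoxb9* was at 1.86 against 0.727 and 0.630 (log2 difference 1.44, SE 0.38, edgeR adjusted p = 0.030), near its 3 E14.5 values. This call was lost without either E18.5 control, without E14.5 control 2 or 3, and in DESeq2. *Hoxc6* was at 21.7 against 31.9 and 38.2 (log2 difference -0.69, SE 0.16, edgeR adjusted p = 0.019), also near its E14.5 values. Scaled to total UMIs, where the all-gene median moved by 0.54, its difference was -0.15 without a call, and 8 members were then higher and none lower. With the replicate number as a block, neither was called. *Hoxa2*, which fell most clearly between the stages in muscle, was at 32.8 in the KO against 23.3 and 23.6 (log2 difference 0.49, edgeR adjusted p = 0.054), and *Hoxc4* at 36.2 against 37.2 and 53.3 (log2 difference -0.32, edgeR adjusted p = 0.30). Not every member that fell between the stages was higher in this KO, since *Hoxd1* and *Hoxc5* lay lower still, without a call. Both comparisons use the same E18.5 controls, so a value nearer to E14.5 is not independent of the stage change. The sum of sarcomere genes in muscle was lower in this section too, 71384 against 128417 and 131917 CPM, and its part in these values was not tested. The number called was 1 to 3 over the fits without 1 control, the 1 being without E14.5 control 2 and the 3 without E14.5 control 1 or E18.5 control 1.

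In muscle of the β-cat cKO, 1 of 28 members was lower and none higher, where 8.8% of all genes were called in either direction and 5.62% were called lower. *Hoxa3* was at 16 against 24.8 and 26.3 (log2 difference -0.68, SE 0.12, edgeR adjusted p = 0.020). It lay below both controls, and the call was lost without E14.5 control 3 (edgeR adjusted p = 0.053) and with the replicate number as a block, and 2 members were called when any other single control was left out. *Hoxa5*, whose model overlaps that of *Hoxa3*, was at 17.2 against 28.6 and 31.3 (log2 difference -0.80, edgeR adjusted p = 0.055), and DESeq2 called both. *Hoxa4*, which lies between them and also overlaps the *Hoxa3* model, did not pass the test, with a log2 difference of -0.08 (edgeR adjusted p = 0.74).

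In other tissue, edgeR called none of 27 members in any mutant. For the E14.5 KO, 0.0% of all genes were called, 3 members had an unadjusted p under 0.05, and DESeq2 called *Hoxd8* and *Hoxc6* lower. *Hoxd8* was at 14.3 against 47.5, 36.4 and 37.7 (log2 difference -1.51, edgeR adjusted p = 0.30). For the E18.5 KO, 0.108% of all genes were called, 4 members had an unadjusted p under 0.05 and DESeq2 called *Hoxc8* lower, at 0.915 against 7.51 and 14.7. For the β-cat cKO, 1.22% of all genes were called, 4 members had an unadjusted p under 0.05 and DESeq2 called *Hoxd8* lower, at 24.7 against 48.3 and 56.4 (edgeR adjusted p = 0.11). All of these lay below their controls. The median log2 difference over members was -0.47, -0.56 and -0.97 in the 3 comparisons, against 0.03, 0 and -0.02 over all genes. Squamous epithelium genes summed to 4816 CPM outside muscle of the β-cat cKO and smooth muscle genes to 3426, and the part of such tissue in the medians was not tested.

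The genes that work with and upstream of *Hox* genes were followed as lists. TALE homeodomain cofactors are Pbx, Meis and Pknox proteins, which bind DNA with Hox proteins. In muscle at E18.5, 1 of their 9 genes was higher and 5 were lower. *Meis1* went from 117, 131 and 119 CPM to 60.8 and 63.6 (log2 change -0.97), with no overlap. *Meis1* was at 90.1 in the E18.5 KO, where it was called higher than its controls, and at 79.1 in the β-cat cKO. Polycomb genes, whose products keep *Hox* clusters silent, had 4 higher and 6 lower of 15, and *Jarid2* among the higher ones turned from 0.64 to -0.078 when scaled to total UMIs. *Ezh2*, the methyltransferase subunit of dividing cells, went from 202, 189 and 174 to 69.1 and 55.1 (-1.60), and its paralog *Ezh1* rose (0.86), as did *Cbx7* (1.11). Trithorax genes, which keep *Hox* clusters active, had 1 higher (*Dpy30*, 1.37) and 5 lower of 7, and the upstream regulators 3 higher, among them *Egr2* and *Rarg*, and 1 lower (*Gdf11*) of 6. These counts stand beside the 65.6% of all genes called between stages, 33.2% higher and 32.3% lower.

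Between muscle and other tissue at E14.5, 3 of the 9 cofactors were higher and 5 lower in muscle, with *Pbx3* at -0.83 and *Meis1* at -0.71 on the log2 scale, where 41.0% of all genes were called. Of the retinoic acid receptors, which act upstream of *Hox* genes, *Rarg* was lower in muscle (-1.20) and so was *Rarb* (-0.51). At E18.5, where 57.9% of all genes were called, 2 cofactors were higher and 4 lower, and *Pbx2* among the higher ones, at 0.48, turned to -0.20 when scaled to total UMIs. In muscle of the E14.5 KO, and in other tissue of every mutant, none of the genes of these lists was called. Muscle of the E18.5 KO had, besides *Meis1*, 3 of 15 Polycomb genes higher and 1 lower (*Ezh2*, *Jarid2*, *Cbx6* and *Cbx7*). *Dpy30* was lower there, where 25.7% of all genes were called. Muscle of the β-cat cKO had *Jarid2* and *Dpy30* lower, where 8.8% of all genes were called. Among the nearest genes outside the clusters, the stage comparison in muscle called 0 higher and 3 lower of 5 beside *Hoxa*, 1 and 1 of 3 beside *Hoxb*, 2 and 2 of 6 beside *Hoxc* and 4 and 1 of 5 beside *Hoxd*, of which 3 beside *Hoxd* and 1 beside *Hoxc* turned lower when scaled to total UMIs.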

How the data were processed

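The authors hybridised Visium FFPE probes to 5 µm sections and made the deposited counts, raw UMIs per gene and spot, with Space Ranger (2.0.0 or 2.0.1 by the matrix headers, mm10) and used Seurat. Probe counting gives 1 value per gene, so isoforms are not seen. Spots under 1000 UMIs were left out. Muscle spots passed an Otsu threshold on 9 sarcomere genes. Spots of a section are not replicates, so the UMIs of each region were added up before any test. edgeR 4.0.16 (filterByExpr, TMM, quasi-likelihood, R 4.3.3) tested group differences over all 8 sections, which share 1 spread with 3 residual degrees of freedom, and region differences in the 5 controls with the section as block, calls being at an adjusted p of 0.05. Python 3.11.15, scipy 1.17.1 and scikit-image 0.26.0 defined spots. The fitting code was run on simulated data for the stage comparison in muscle and for regions within muscle. The mutant comparisons and muscle against other tissue were not simulated. Regions compared within a section share an embryo, and their deviations correlated at 0.490 to 0.772 between muscle and other tissue, which is the pairing used. Spot barcodes name slide positions, and up to 2153 were shared between a pair of sections. P-values measure the spread between the sections of the 5 controls. Each mutant group had 1 section, so its spread was taken from the controls and was not measured between mutant embryos.

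The members and gene lists were chosen with earlier results of these data known. Full statistics were given to the members called in a comparison, at most 10 by adjusted p with a further one where 11 were called, and to the uncalled member with most UMIs, and partner genes were given as counts with values for called ones. Other members were named after their values were seen. Overlap of values was described mainly for members already called, so it adds no support to a call. No share of all genes without overlap is given beside it. Alternatives were DESeq2 1.42.0, total scaling, no filter on low counts, blocks, other regions and leaving out each control. No protein sequences were used here. Some genes, and a comparison of regions within muscle, are not reported here, although the fits and counts include those genes.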

Additional observations from a re-analysis of the deposited data

Results flagged for a closer look

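*Hoxc6* and *Hoxb2* differed in their muscle against other tissue contrast between the stages by the test of the difference itself. The E18.5 contrast was higher than the E14.5 contrast by 1.13 on the log2 scale for *Hoxc6*, and lower for *Hoxb2*, at -0.63. *Hoxc6* was lower in muscle in 3 of 3 sections at E14.5 and higher in 2 of 2 at E18.5, on the TMM scale. Scaled to total UMIs, its E18.5 difference was -0.028. The call of its change between stages was lost on that scale and without the section as a block.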

How the results depend on the processing

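Of 124 alternative counts of called members, 81 lay within 1.5 times the count reported. These include counts of 0 that stayed at 0 in the mutant comparisons without a call, so they say less about the comparisons with calls. Another 516 alternative values were those of the called members and of the most abundant uncalled member of each comparison. Of these, 430 kept their status as called or not called, 77 lost the call and 5 gained it. In 4, a called member changed sign. Direction was compared for called members only. Calls that other uncalled members gained show only in the counts. Scaling to total UMIs gave 18 calls between stages in muscle, 8 for the E18.5 KO in muscle, 4 between stages in other tissue, 14 and 20 for muscle against other tissue at E14.5 and E18.5, and 6 for their interaction. It also turned *Hoxc6* and *Hoxa3* between stages in muscle to -0.043 and -0.47, and *Hoxa4* and *Hoxc6* in muscle against other tissue at E18.5 to -0.13 and -0.028. TMM removes the shift of the all-gene median by construction. DESeq2 called 1 member for the E18.5 KO and 2 for the β-cat cKO in muscle, 2 between stages in other tissue, and 2, 1 and 1 in other tissue of the E14.5 KO, the E18.5 KO and the β-cat cKO. Without a filter on low counts, 4 and 2 were called for the E18.5 KO and the β-cat cKO in muscle. Core muscle spots gave 1 for the E18.5 KO and 2 for the β-cat cKO. Other tissue away from muscle gave 0 between stages, 6 for muscle against other tissue at E18.5 and 1 for the interaction. Without liver, cartilage and adrenal spots, 2 were called between stages in other tissue and 1 for the β-cat cKO there. This setting left out a group only where its list took at least 10 spots and at least 3 of its genes were 3 times as abundant there as elsewhere. In E14.5 control 1 the adrenal cortex list took 7 spots, so the patch rich in adrenal cortex genes was not left out as adrenal. Chosen after seeing the data, leaving out adrenal-rich spots gave 3 between stages in other tissue and 4 for the interaction.

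The replicate numbers of the group comparisons only name sections (deviations of same-numbered sections of the 2 stages correlated at -0.366). With the replicate block, 0 members were called in muscle of the E18.5 KO and 0 in that of the β-cat cKO. Without the section as a replicate block the interaction had 0 calls. The cause of these changes was not tested.

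Leaving out 1 control at a time gave 7 to 10 calls between stages in muscle, 0 to 0 for the E14.5 KO, 1 to 3 for the E18.5 KO and 0 to 2 for the β-cat cKO. In other tissue it gave 0 to 2 between stages and 0 to 0 for each mutant. Muscle against other tissue ranged from 3 to 12 at E14.5, 6 to 14 at E18.5 and 1 to 5 in the interaction. Where 1 control section was left at E18.5, it was assumed to vary like the other groups. Members near 1 CPM rest on few UMIs, and mutants on 1 section each.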

Other observations

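Spots of other tissue were also grouped by lists of marker genes. The *Hox* UMIs of a group were summed where it had at least 10 spots and passed a marker rule. By this rule, at least 3 of its marker genes were at least 3 times as abundant there as in the section's other spots. Groups that failed it, such as 43 fibroblast spots of E14.5 control 1, are not in the rankings below. Spots rich in hepatocyte genes had the lowest sum in each of the 5 sections with such a group (the other sections had 2, 9 and 4 hepatocyte spots), at 335, 293 and 205 CPM (UMIs per 1000000) in E14.5 controls 2 and 3 and E18.5 control 1, and 156 and 214 in the E14.5 and E18.5 KO. In both KO sections the interval of that sum overlapped that of erythrocyte spots, with 141 to 173 against 147 to 201 in the E14.5 KO and 180 to 253 against 185 to 294 in the E18.5 KO. Spots rich in cartilage genes had the highest sum in 5 sections, with 823 and 709 in E14.5 controls 2 and 3, 580 and 826 in the E18.5 controls and 634 in the E14.5 KO. The cartilage interval overlapped that of mesothelium spots in E14.5 control 2 (762 to 888 against 728 to 815) and the E14.5 KO (593 to 677 against 589 to 649). In that KO it also overlapped those of neuron and Schwann cell spots. Cartilage was not highest in the other sections. In E14.5 control 1 erythrocyte and mesothelium spots had 641 and 615 against 572 in cartilage, and smooth muscle spots had 480 against 465 in the E18.5 KO and 449 against 426 in the β-cat cKO. *Hoxc8* was at 77.0 CPM in the cartilage spots of E14.5 control 2 and at 67.8 and 72.0 in those of the E18.5 controls. *Hoxb5* reached 102 CPM in 18 spots rich in lung epithelium genes of the E14.5 KO, and *Hoxa5*, which acts in lung development, 128 in its 70 mesothelium spots. Windows were sought over all spots of a section, muscle included. *Hoxc10* had 25 of its 50 UMIs of E18.5 control 2 in a window of 19 spots, 10 of them muscle. In the β-cat cKO it had 17 of 30 in a window of 11 spots, all of them muscle. These lists were drawn up with earlier results known, and no test was made.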
